A study of Homo sapiens with 6 samples.

Results

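Vitamin D is activated, sensed and destroyed inside epithelial cells by a short series of proteins, and 6 of their genes were followed here among the 58884 genes counted in HSC-4 cells. The 6 were CYP27B1, CYP24A1, VDR, RXRA, RXRB and TRPV6, each found by its current gene symbol. They were chosen from results of this same contrast, so their differences between the groups are given as a description, without a p-value. Where a member is said to be called or not, nothing is concluded from it. The HSC-4 cell line was established from a squamous carcinoma of the mouth, and DAPT is a drug that inhibits γ-secretase, the protease by which Notch receptors are cut and activated. RNA sequencing covered 3 libraries of cells given 50 µM DAPT for 24 h and 3 control libraries, all from this 1 line and with no other drug or gene change. By the study's methods the controls received the DMSO vehicle, but their deposited count columns carry the letters GM, which no label explains. If those cells had growth medium only, effects of DAPT and of the vehicle cannot be told apart. The labels number the libraries within each group and do not say whether they came from separate cultures, so the p-values measure only the spread between these libraries.

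The hormone form of vitamin D, calcitriol, is made from its circulating precursor by CYP27B1, a mitochondrial cytochrome P450, and is broken down by CYP24A1, another enzyme of that family. Calcitriol binds the vitamin D receptor VDR, a nuclear receptor that pairs with a retinoid X receptor such as RXRA or RXRB and then binds response elements in DNA. CYP24A1 is the classical gene that this pair raises, which closes a feedback loop, and in calcium-transporting epithelia the calcium channel gene TRPV6 is another of its targets. Keratinocytes, the normal cells of squamous epithelium, carry both the enzymes and the receptor.

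Total counts lay between 12276313 and 16317672 reads per library, and 15001 genes had enough reads to be tested. Levels are given as CPM, counts scaled to one common library size with factors from the trimmed mean of M-values (TMM), with the SD over 3 libraries. Between the groups, 35.2% of the tested genes passed edgeR's quasi-likelihood test (adjusted p under 0.05), 18.0% being lower and 17.2% higher with DAPT. The 5 Notch target genes used to check the treatment were all lower, from a log2 fold change of -0.77 for HES1 to -2.45 for HES2. Control 1 stood apart from the other libraries. Its 6 fibroblast markers summed to 552.5 CPM, against 50.0 to 58.3 CPM in the other 5 libraries, and the part of this difference in the results was not tested. Member values without control 1 are therefore given as well. The 6 squamous epithelial markers were all detected, and their sum was between 4534 and 4643 CPM in the controls and between 2769 and 2883 CPM with DAPT. These markers did not move as one, since KRT5, KRT6A, KRT14 and TP63 fell, CDH1 rose from 512 to 617 CPM (edgeR adjusted p = 0.000139) and DSG3 did not pass. Leukocyte markers summed to at most 13.0 CPM, 2 of the 6 having no read in any library. Most of that sum was CD14, at a mean of 11.7 CPM in the controls and 9.43 CPM with DAPT. Endothelial markers summed to 1.24 to 1.68 CPM in the controls and 2.41 to 2.92 CPM with DAPT. Among them CDH5 rose from 0.328 to 1.81 CPM (edgeR adjusted p = 4.93e-05), few reads in each library, and VWF did not pass. In RNA from a whole culture, fewer cells of a type and less RNA per cell cannot be told apart.

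CYP24A1, the enzyme that inactivates calcitriol, had the largest difference of the 6 genes. Its gene, ENSG00000019186, lies on the minus strand of chromosome 20 from 54153446 to 54173986 (GRCh38). CYP24A1 was at 38.2, 35.3 and 34.7 CPM in controls 1, 2 and 3 and at 8.90, 8.34 and 8.30 CPM with DAPT 1, 2 and 3. Every control library was thus far above every DAPT library, and the 3 DAPT libraries lay within 1 CPM of each other. The control mean was 36.1 ± 1.85 CPM (SD, n = 3) and the DAPT mean 8.51 ± 0.337 CPM (SD, n = 3). On the log2 scale the difference was -2.08 with a standard error of 0.086, which puts the controls 4.24-fold higher. Only 0.247% of the tested genes had a lower log2 fold change. Between 108 and 613 reads stood behind each CYP24A1 value, and its exons shared no bases with another gene.

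CYP27B1, the enzyme that makes calcitriol, was also lower with DAPT, by a smaller amount. The gene, ENSG00000111012, lies on the minus strand of chromosome 12 from 57762334 to 57768986. CYP27B1 was at 18.0, 21.8 and 20.3 CPM in the 3 controls and at 12.8, 14.0 and 12.1 CPM in the 3 DAPT libraries. The lowest control was again above the highest DAPT library. The control mean was 20.0 ± 1.92 CPM and the DAPT mean 13.0 ± 0.965 CPM (SD, n = 3 each). The log2 fold change was -0.62 with a standard error of 0.098. Of the exonic bases of CYP27B1, 3.26% are shared with METTL1 on the same strand, and reads from those bases were not counted for either gene.

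Since both enzymes were lower and the inactivating one more so, their ratio changed as well. Per kilobase of canonical transcript, the level of CYP24A1 divided by that of CYP27B1 was 1.54, 1.17 and 1.24 in the 3 controls. It was 0.503, 0.430 and 0.495 in the 3 DAPT libraries. CYP24A1 messenger RNA was thus the more abundant of the pair in every control and the less abundant in every DAPT library. The ratio is a description built on the same values that chose the genes, and says nothing of enzyme protein or of calcitriol, neither of which was measured.

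TRPV6, which forms a calcium entry channel at the surface of epithelial cells, had the lowest level of the 6 in every library, also per kilobase of transcript. The gene, ENSG00000165125, lies on the minus strand of chromosome 7 from 142871208 to 142885745. TRPV6 was at 6.79, 7.87 and 8.45 CPM in the 3 controls and at 5.26, 5.41 and 5.38 CPM in the 3 DAPT libraries. The groups did not overlap, although the gap between control 1 and the DAPT libraries was smaller than the spread among the controls. The mean was 7.70 ± 0.843 CPM in the controls and 5.35 ± 0.0786 CPM with DAPT (SD, n = 3 each), and the log2 fold change was -0.52 with a standard error of 0.137. These values rest on 70 to 109 reads per library. Its close relative TRPV5 had at most 1 read in any library.

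VDR, the receptor itself, differed by less than the spread between libraries. The gene, ENSG00000111424, lies on the minus strand of chromosome 12 from 47841537 to 47943048. VDR was at 39.9, 43.0 and 49.9 CPM in the 3 controls and at 43.8, 42.0 and 38.4 CPM in the 3 DAPT libraries. The groups overlapped, with DAPT 1 above controls 1 and 2. The mean was 44.3 ± 5.17 CPM in the controls and 41.4 ± 2.77 CPM with DAPT (SD, n = 3 each), and the log2 fold change was -0.089 with a standard error of 0.081.

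RXRA and RXRB, the DNA-binding partners of VDR and of several other nuclear receptors, overlapped between the groups too. RXRA, ENSG00000186350, lies on the plus strand of chromosome 9 from 134317098 to 134440585, and RXRB, ENSG00000204231, on the minus strand of chromosome 6 from 33193588 to 33200688. RXRA was at 216, 239 and 232 CPM in the 3 controls and at 212, 214 and 231 CPM in the 3 DAPT libraries. RXRB was at 49.0, 50.9 and 50.2 CPM in the 3 controls and at 48.4, 53.7 and 56.1 CPM in the 3 DAPT libraries. For RXRB the spread was larger with DAPT, where the values lay both below and above all controls. The log2 fold change was -0.064 for RXRA and 0.075 for RXRB, with standard errors of 0.053 and 0.067. Of the exonic bases of RXRB, 6.22% lie opposite SLC39A7, which the counting kept apart by strand if its strand setting is right.

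**Figure D1:**
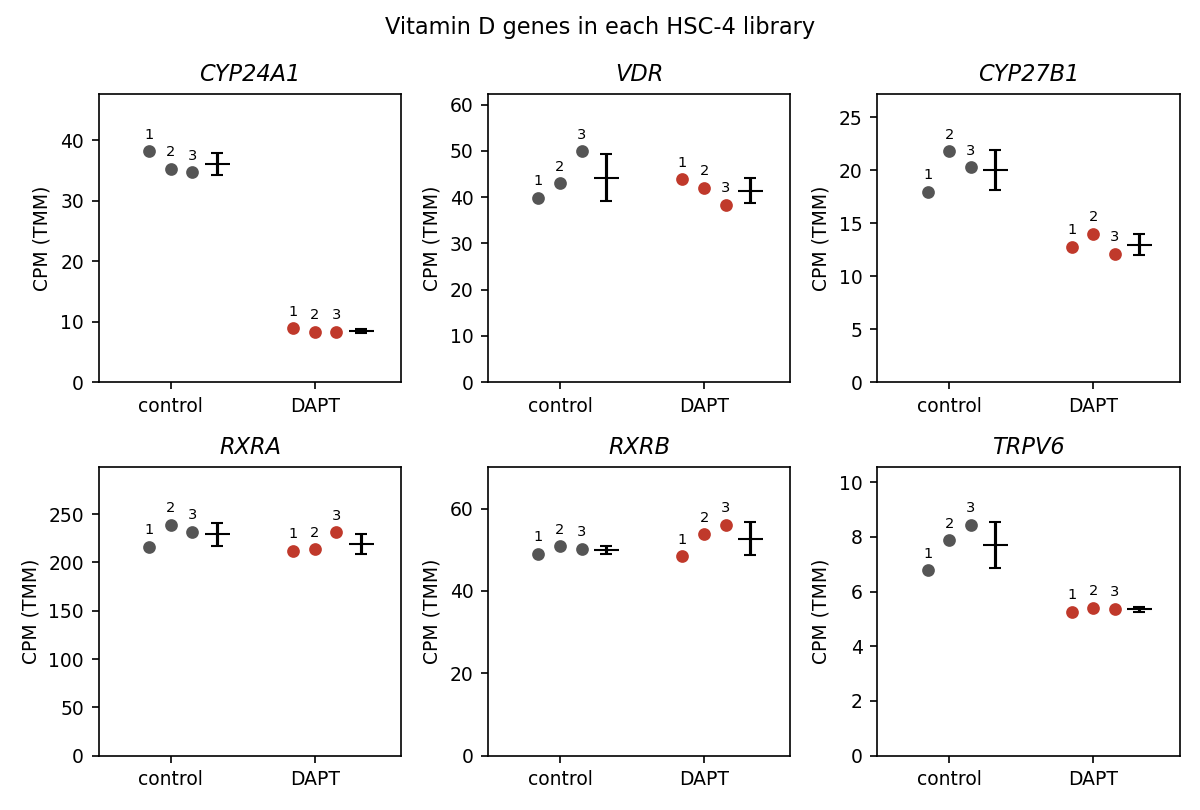
Level of each of the 6 vitamin D genes in each HSC-4 library, in TMM-scaled CPM on axes that start at 0. Points are single libraries with their replicate number, the horizontal line is the group mean and the bar is 1 SD over 3 libraries. For CYP24A1, CYP27B1 and TRPV6 all DAPT points lie below all control points, whereas the points of VDR, RXRA and RXRB overlap.

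CYP24A1, CYP27B1 and TRPV6 were thus the 3 members whose groups did not overlap, as was true of 46.3% of all tested genes in either direction. The same 3 were counted among the 18.0% of tested genes that were lower with DAPT, and the other 3 were counted in neither direction. Because the members were chosen from this contrast, nothing is read from these counts or from any call of a member. Without control 1 the log2 fold changes were -2.04 for CYP24A1, -0.70 for CYP27B1, -0.61 for TRPV6, -0.16 for VDR, -0.10 for RXRA and 0.059 for RXRB. All 6 kept their sign. Those of CYP27B1, TRPV6, VDR and RXRA were further from 0 than with all libraries, and those of CYP24A1 and RXRB were closer. The call for TRPV6 was lost in DESeq2, the only 1 of 14 alternative settings in which a member changed its side of the threshold.

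**Figure D2:**
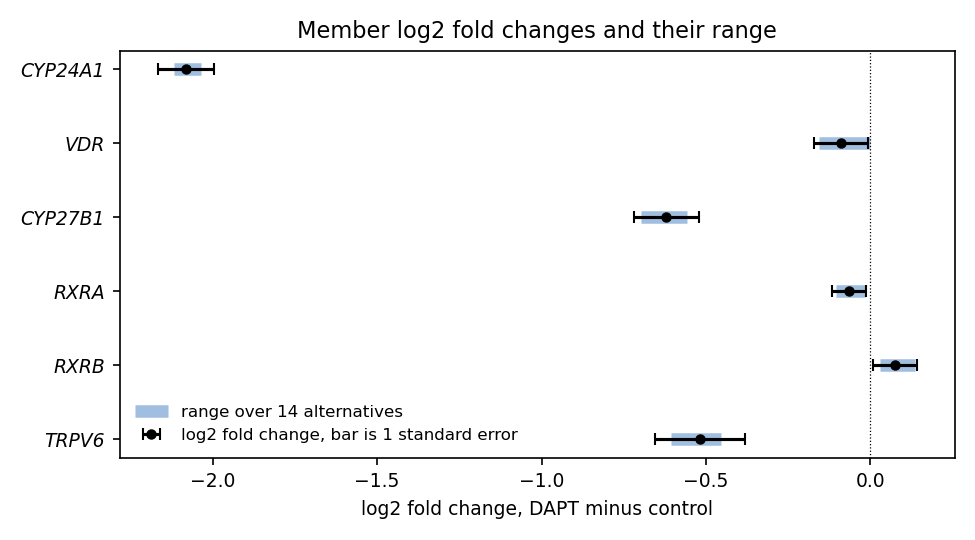
Log2 fold change of each member, DAPT minus control, with a bar of 1 standard error either side, over a band that spans the values from 14 alternative settings. The band of CYP24A1 runs from -2.12 to -2.04, and those of VDR, RXRA and RXRB lie near 0.

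To compare genes with each other, levels were divided by the length of the canonical transcript and are given as CPM per kilobase. In the controls the order was RXRA at 41.3 ± 2.10, RXRB at 17.3 ± 0.333, CYP24A1 at 11.0 ± 0.565, VDR at 9.59 ± 1.12, CYP27B1 at 8.45 ± 0.809 and TRPV6 at 2.65 ± 0.290 (SD, n = 3 each). CYP24A1 overlapped its neighbour VDR in this order, and VDR overlapped CYP27B1, while RXRA, RXRB and TRPV6 stood clear of the rest. With DAPT, RXRA was at 39.5 ± 1.92, RXRB at 18.3 ± 1.37, VDR at 8.98 ± 0.599, CYP27B1 at 5.48 ± 0.407, CYP24A1 at 2.60 ± 0.103 and TRPV6 at 1.84 ± 0.0271. None of these neighbours overlapped, and CYP24A1 had gone from the 3rd to the 5th place. RXRA exceeded VDR by 4.34 ± 0.416 times in the controls and by 4.43 ± 0.520 times with DAPT, so the partner was the more abundant messenger RNA in both groups. The canonical length was chosen after the values were seen. The union of all exons gave the same order in both groups, but put RXRA at 2.64 ± 0.253 times VDR in the controls and at 2.69 ± 0.316 times with DAPT. For TRPV6 that union is 11903 bases, against 2906 in the canonical transcript. By the union length TRPV6 was at 0.45 and CYP24A1 at 2.13 with DAPT, further apart than by the canonical length.

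**Figure D3:**
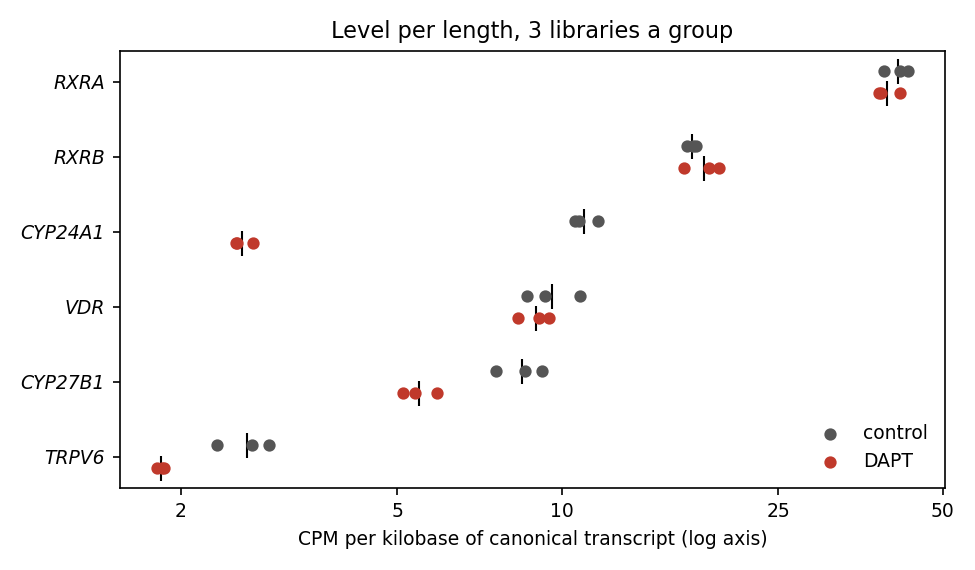
Level of each member in CPM per kilobase of canonical transcript, on a log axis, with 1 point per library and a line at the mean of each group. CYP24A1 lies between RXRB and VDR in the controls and between CYP27B1 and TRPV6 with DAPT.

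Genes near the members gave a local comparison that did not enter the choice of members. PFDN4, a prefoldin subunit gene that lies 34.1 kb from CYP24A1, was the only tested gene within 250 kb of it. Its log2 fold change was -0.0033 with a standard error of 0.059 (edgeR adjusted p = 0.972). On the other side the nearest tested gene was ZNF217, at 543.5 kb, with a log2 fold change of -0.0011 and a standard error of 0.055 (edgeR adjusted p = 0.991). Neither gene passed the test. The nearest tested gene to TRPV6 was EPHB6, 0.114 kb away, with a log2 fold change of -0.18 and a standard error of 0.144 (edgeR adjusted p = 0.36). Within 250 kb of CYP27B1, 5 of 23 tested genes fell and 4 rose. The corresponding numbers were 2 and 1 of 11 around VDR, 5 and 5 of 22 around RXRB, and none of 3 around RXRA. Since 35.2% of all tested genes were called in either direction, these counts are not read as local changes.

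The promoter bases upstream of TRPV6 are shown because it was the only one of the 3 lower members with an entry in the RefSeq promoter table used (GRCh38.p14). That table also held 4 windows for RXRA and RXRB, each window running from 250 bases before to 50 bases after a transcription start. The 250 bases before the TRPV6 start, chr7:142885746-142885995 on the minus strand, are printed 5′ to 3′. The capitals mark the alignment closest to a DR3 vitamin D response element, which is a pair of hexamer half-sites with 3 bases between them.
TRPV6 upstream: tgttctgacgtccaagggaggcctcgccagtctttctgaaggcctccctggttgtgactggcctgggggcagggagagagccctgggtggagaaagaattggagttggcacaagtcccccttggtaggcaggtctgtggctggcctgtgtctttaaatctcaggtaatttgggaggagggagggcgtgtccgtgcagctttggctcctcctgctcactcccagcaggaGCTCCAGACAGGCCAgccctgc
This alignment begins 22 bases before the start and has 3 mismatches in its half-site bases, and 74.0% of the 34796 promoter windows in the table hold one at least as close. With at most 2 mismatches, DR3 was found on either strand in 16.8% of all windows and in none of the 5 windows of TRPV6, RXRA and RXRB. The half-site AGTTCA occurs in 10.5% of all windows, the half-site GGTTCA in 8.61% and the half-site AGGTCA in 13.8%, and none of these was in the same 5. The motif TGGGAA, the core bound by the Notch effector RBPJ, occurs in 24.0% of windows and was likewise absent from them. A half-site can lie within a DR3, so these searches overlap, and a missing match says only that these letters are not in these windows.

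The other genes of vitamin D handling were mixed. The list of activation, transport and electron donor genes had 13 genes, of which 9 were tested, 2 fell and 1 rose. Their median log2 fold change was 0.0051, beside 0.0096 for all tested genes. As 35.2% of all tested genes were called in either direction, this count is not read as a result about the list. This list and those that follow were written with earlier results of these data known. FDXR, the reductase that passes electrons to the mitochondrial P450 enzymes, fell from 26.8 ± 2.53 to 19.5 ± 1.99 CPM (edgeR adjusted p = 0.000428). FDX1, the ferredoxin that carries those electrons onward, was at 26.2 CPM in both groups, with a log2 fold change of 0.0002. DHCR7, which draws off the skin precursor of vitamin D toward cholesterol, fell by 0.21 on the log2 scale (edgeR adjusted p = 0.0306), a call lost in 6 of 14 settings, among them DESeq2 and the fits without control 2, control 3, DAPT 2 or DAPT 3. CYP2R1, the main 25-hydroxylase, had a log2 fold change of 0.40 that did not pass the test (edgeR adjusted p = 0.105). DAB2, an adaptor for uptake of the carrier protein, was at 16.3 CPM in control 1 and between 6.53 and 8.52 CPM in the other 5 libraries, so its level moved with the library that stood apart. GC, the carrier protein gene, and LRP2, its uptake receptor, had no read in any library, and CYP3A4 had at most 1.

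Among the cytochrome P450 relatives of CYP24A1, CYP26A1, CYP26B1 and CYP27C1 were lower. Of 8 genes in this list 5 were tested, 3 fell and 1 rose, with a median of -0.31. The share over all tested genes was 18.0% lower and 17.2% higher. CYP26A1 and CYP26B1, which inactivate retinoic acid, went from 5.02 ± 0.733 to 2.74 ± 0.525 CPM and from 22.7 ± 0.504 to 18.3 ± 0.339 CPM. Their log2 fold changes were -0.87 and -0.31 (edgeR adjusted p = 0.00114 and 0.00367). CYP27C1, which acts on retinoids in skin, fell from 13.8 ± 0.451 to 7.59 ± 0.108 CPM (edgeR adjusted p = 1.72e-06). CYP27A1, a sterol 27-hydroxylase that can also 25-hydroxylate vitamin D, rose from 3.59 ± 0.572 to 5.36 ± 0.626 CPM (edgeR adjusted p = 0.0128), a call that was lost in DESeq2 and without either control 3 or DAPT 3. CYP11B1 and CYP11B2, enzymes of the adrenal cortex, had at most 1 read in any library.

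Of 16 other receptors that pair with RXR 10 were tested, 3 fell and none rose, with a median of 0.043, while 35.2% of all tested genes were called in either direction. NR4A1, an immediate early receptor, fell by 0.72 on the log2 scale (edgeR adjusted p = 0.0226), from a low level of 3.85 ± 0.974 CPM. The thyroid hormone receptor gene THRA fell by 0.23 and the retinoic acid receptor gene RARA by 0.19 on that scale (edgeR adjusted p = 0.0203 and 0.0386). All 3 calls were lost under some settings, 5 of 14 for NR4A1 and THRA and 7 of 14 for RARA. RXRG, NR1H4 and NR1I2 had no read, so RXRA and RXRB were the RXR genes detected in these cells.

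Of the coregulators through which VDR acts on transcription, all 14 were tested, 7 rose and none fell, with a median of 0.11. Among all tested genes 17.2% rose and 18.0% fell. The list was written with earlier results known, and the paper reports CREBBP and EP300 as upregulated. These counts are therefore not read as a result about the coregulators. The 7th to rise was SMARCD1, whose call held in only 2 of 14 alternative settings. NCOA1, a p160 coactivator, rose from 40.6 ± 1.17 to 62.0 ± 3.20 CPM, a log2 fold change of 0.61 (edgeR adjusted p = 2.16e-07). The histone acetyltransferase genes CREBBP and EP300 rose by 0.48 and 0.33 on the log2 scale (edgeR adjusted p = 1.46e-06 and 5.81e-05). NCOR1, a corepressor, rose by 0.31, NCOA2 by 0.28 and MED1, the Mediator subunit that VDR contacts, by 0.24. The rise was thus found in a corepressor gene as well as in coactivator genes. HR, a VDR corepressor, had a log2 fold change of -0.28 that did not pass (edgeR adjusted p = 0.0505). HR was called lower in 4 of 14 settings, among them RLE scaling, no low-count filter and the fit without control 1 (-0.41, edgeR adjusted p = 0.000148). SMARCA4, a chromatin remodelling ATPase gene, was called lower in 1, the fit without DAPT 1.

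Genes known to be raised through VDR in various cell types went in both directions, and more of them rose than fell. The list held 26 genes, of which 17 were tested, 2 fell and 8 rose, with a median of 0.19. Beside these counts, 18.0% of all tested genes fell and 17.2% rose. This list too was written with earlier results known, and the paper reports its genes CDKN1A and GADD45A as upregulated. The counts are therefore not read as a result about VDR targets. TXNIP, the thioredoxin inhibitor, rose from 470 ± 16.8 to 987 ± 48.9 CPM, a log2 fold change of 1.07 (edgeR adjusted p = 3.95e-13). The factor KLF4 rose by 0.81, the growth arrest gene GADD45A by 0.77, the thrombomodulin gene THBD by 0.65 and the MAX partner gene MXD1 by 0.57 on the log2 scale, with edgeR adjusted p between 2.17e-07 and 3.04e-05. SERPINB1, a protease inhibitor, fell from 147 ± 0.600 to 75.8 ± 4.46 CPM (edgeR adjusted p = 8.66e-12), the largest fall in the list. The other fall, of CD14, was called in 6 of 14 settings. Many of these genes are known to answer to other signals too. CAMP, G0S2, FGF23, TNFSF11 and ORM1 had under 3 reads in every library.

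In epithelial calcium transport and sensing, 7 of 12 genes were tested, 2 fell and 3 rose, with a median of 0.059. For all tested genes the share called was 18.0% lower and 17.2% higher. PTHLH, which encodes parathyroid hormone-related protein, fell from 184 ± 12.9 to 100.3 ± 4.42 CPM, a log2 fold change of -0.87 (edgeR adjusted p = 8.95e-11). PTH1R, the receptor for that protein, fell by 1.74 on the log2 scale from 1.32 ± 0.338 CPM, a level of few reads (edgeR adjusted p = 0.00234). The plasma membrane calcium pump genes ATP2B1 and ATP2B4 rose by 0.33 and 0.14 and the claudin gene CLDN12 by 0.17 on that scale, of which the calls for ATP2B4 and CLDN12 were lost in 6 and 3 of 14 settings. TRPV5, S100G, CASR and CLDN2 had under 3 reads in every library. Of the 5 other TRPV channels 2 were tested. TRPV4, a channel of stretch and heat, fell from 35.9 ± 3.65 to 28.0 ± 1.19 CPM (edgeR adjusted p = 0.00206), whereas TRPV1 had a log2 fold change of 0.23 that did not pass (edgeR adjusted p = 0.131). TRPV3 had under 3 reads in every library.

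**Figure D4:**
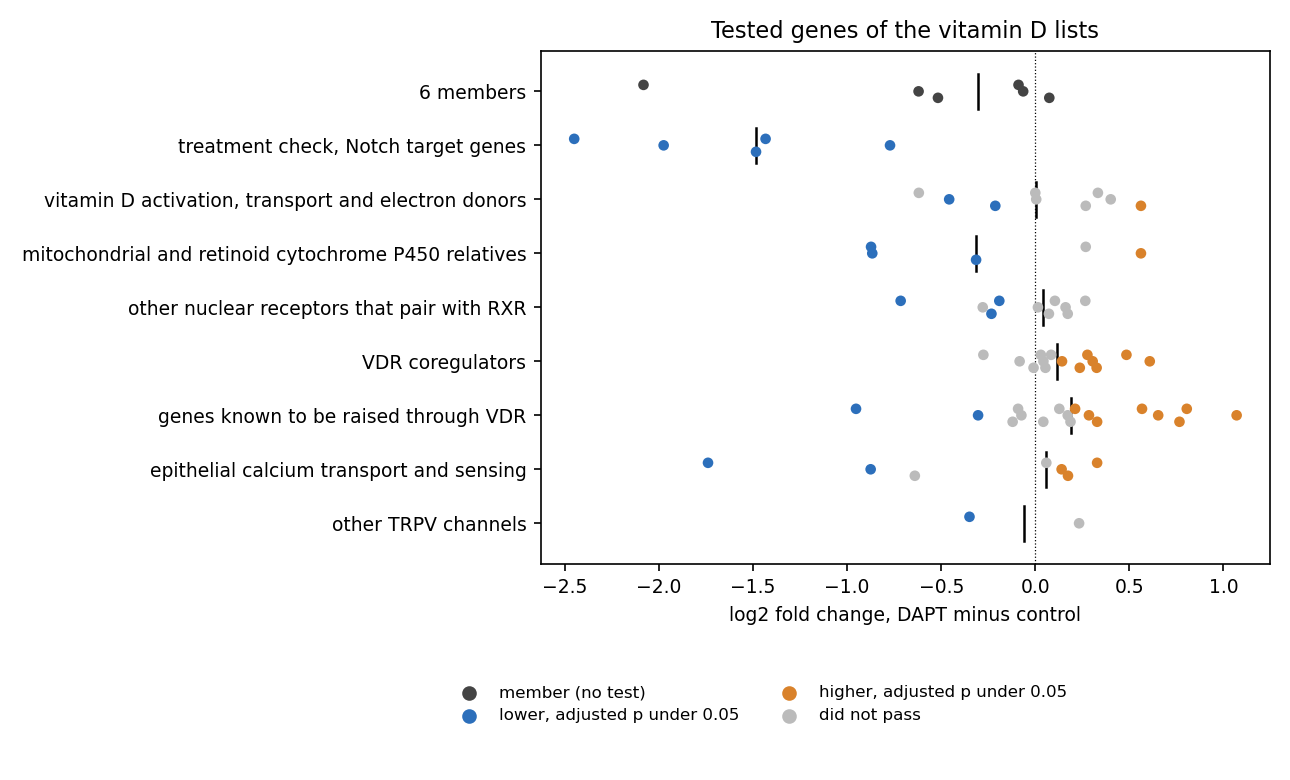
Log2 fold change, DAPT minus control, of every tested gene in the member group and in 8 gene lists, 1 point per gene, with a vertical line at each median. Blue and orange points are genes that fell and rose at an edgeR adjusted p under 0.05, and grey points did not pass. Members are dark whatever their call, because they were chosen from this contrast. CYP24A1 is the left-most member at -2.08, and the VDR coregulators show orange and no blue points.

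Across the 6 libraries, the log2 level of CYP24A1 had a Pearson r of 0.940 with CYP27B1, 0.924 with TRPV6, 0.446 with RXRA, 0.362 with VDR and -0.522 with RXRB. With 2 groups of 3, such a value mostly reflects the difference between the groups, and it has no test. Of 14198 genes with a mean of at least 1 CPM, 919 had an r above 0.95. The 5 most alike were TNFAIP8L1 (r = 0.99932), FABP5 (0.99927), GALNT14 (0.99915), PLAT (0.99898) and ATP1B1 (0.99884). Likeness here is of pattern and not of size, since the log2 fold change was -0.44 for TNFAIP8L1 and -1.96 for FABP5. FABP5, a carrier of fatty acids and retinoic acid, was at 155 ± 7.25 CPM in the controls and 39.8 ± 1.90 CPM with DAPT. After the group means were taken away, r with CYP24A1 was 0.990 for TNFAIP8L1, 0.756 for FABP5, 0.963 for GALNT14, 0.800 for PLAT and 0.701 for ATP1B1. These 5 genes were picked by r over the same 6 libraries, so the remaining r is partly built in by that choice.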

How the data were processed

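The authors deposited raw read counts for each of the 6 libraries. Their single-end reads had been trimmed (Trim Galore), aligned to GRCh38 (HISAT2) and assigned to Ensembl exons by gene and strand (featureCounts 1.6.3). The strand setting of that counting was taken as right. By the defaults of featureCounts, multi-mapping reads and reads shared by several genes were not counted. The submitters' processing notes also name bcl2fastq 2.19, FastQC, HTSeq and DESeq2. Symbols and canonical lengths came from GENCODE release 44, which held 58472 of the 58884 gene identifiers, and coordinates are those of the count files.

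Groups and replicate numbers follow the labels. Dose, time and vehicle follow the study's methods. DAPT and control were compared with edgeR 4.0.16 in R 4.3.3, using TMM scaling, its low-count filter (minimum count 10), robust quasi-likelihood fits and Benjamini-Hochberg adjustment over 15001 genes at 0.05. Standard errors were derived from the F statistic. The procedure was tested on simulated data. The members and gene lists were chosen with earlier results of these data known. Named list genes are those with an adjusted p under 0.05, the 6 with the largest absolute log2 fold change where a list had more, and some that did not pass, which were chosen after their values were seen. Genes with under 3 reads in every library were taken as not measurable, and this floor covers counting error only. The alternatives were RLE and library size scaling, other low-count filters, DESeq2 1.42.0, limma-voom (limma 3.58.1), a fit that is not robust, a replicate block and leaving out each library. The 3-mismatch DR3 alignment and the canonical lengths were added after the data were seen.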

Additional observations from a re-analysis of the deposited data

How the results depend on the processing

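All 84 member log2 fold changes under 14 alternatives kept their sign and moved by less than 1 SD. That SD is of a difference between single libraries of the 2 groups on the log2 scale. For VDR it was 0.192, wider than the log2 fold change itself, which ranged from -0.157 to -0.0014. The TRPV6 call was lost in DESeq2, and the cause was not tested. Over all genes, 2707 were lower and 2574 higher with DAPT. DESeq2 gave 1975 and 1634, and leaving out 1 library gave 2190 to 2892 lower and 1901 to 2726 higher. Both upper ends came from the fit without control 1, and leaving out any other library gave fewer genes in each direction. Scaling by library size alone gave 2156 lower and 3445 higher (61.5% of calls higher), a median shift of 0.056 on the log2 scale. It put the DAPT mean of TRPV6 at 5.43 CPM, beyond the small SD of that group in CPM. No other member mean moved by 1 SD of its group. Of 224 list counts under the alternatives, 190 were within 1.5 times the reported count, counts that stayed at 0 included. The counts of the Notch targets and of the other TRPV channels were the same in every setting. All 34 counts that moved were thus in the remaining lists. Of 36 list genes called, 26 were called under every alternative that gave a value. Over 0.95 likeness to CYP24A1, Spearman's rho gave 91 genes and Pearson's r with group means removed gave 197, in place of 919. Same-numbered libraries did not deviate together (r = 0.017, 0.025 and 0.0038 over 15001 genes), and a fit with the replicate block gave 2737 lower and 2558 higher genes and changed the side of no member, but called HR lower. Depth limits the genes with few reads, TRPV6 among the members.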
